A study of Mus musculus with 3 samples.

Results

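The Pax7 locus was followed in H3K27ac ChIP-seq of tibialis anterior (TA) muscle from C57/BL6 mice, with 1 library at 2 months, 1 at 10 months, and 1 at 20 months of age. The locus was taken as an interval of 310 kb on chromosome 4 (mm9), with every peak counted that starts at or above 139130000 and ends at or below 139440000. It held 134 peaks of 97857 in the 3 lists. Of these, the 2-month list gave 122 of its 17884, the 10-month list 3 of its 35221, and the 20-month list 9 of its 44752. The interval was chosen by these numbers of peaks, as the place around Pax7 where the 2-month list is crowded and the later lists are not, so they describe the locus and do not test it. The labels give the strain C57/BL6 at each age and name no treatment, which the peak lists cannot check, and the sources used here give neither their sex nor how many entered a library. The tissue labels and titles name TA muscle, while the extraction protocol speaks of chromatin from activated satellite cells (SCs). No mm9 positions of myofiber genes were used, so the tissue was not checked against its defining genes, and the bearing of this protocol text on the locus was not tested.

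Pax7 encodes a paired-box transcription factor that marks SCs, the stem cells lying between a myofiber and its basal lamina, and the maintenance of these cells in adult muscle depends on it. SCs make up a minor share of the nuclei of a whole muscle. H3K27ac marks promoters and enhancers in use, and genes that define a cell type often lie in long stretches of it. In RefSeq (GRCm38.p6), the protein-coding neighbors on one side of Pax7 are Tas1r2, a subunit of the sweet taste receptor, Aldh4a1, a mitochondrial enzyme of proline breakdown, and Iffo2, a member of the intermediate filament family. Klhdc7a, a kelch domain gene, and Igsf21, of the immunoglobulin superfamily, follow on the other side. Since the peaks are on mm9 and the gene table is not, no peak was assigned to a gene or an exon, and the link of the interval to Pax7 is that of its definition. In bulk muscle, fewer SCs and less H3K27ac per SC cannot be told apart. Input DNA of these mice was not analysed here, so H3K27ac over the locus cannot be told apart from a different number of DNA copies of it in a library.

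The promoter of Pax7 is shown because transcription of the gene starts in it. It is the RefSeq window of 300 bases on the minus strand of GRCm38.p6, chr4:139832919-139833218, a position that was not converted to mm9. Capitals mark each CG.
Pax7 promoter: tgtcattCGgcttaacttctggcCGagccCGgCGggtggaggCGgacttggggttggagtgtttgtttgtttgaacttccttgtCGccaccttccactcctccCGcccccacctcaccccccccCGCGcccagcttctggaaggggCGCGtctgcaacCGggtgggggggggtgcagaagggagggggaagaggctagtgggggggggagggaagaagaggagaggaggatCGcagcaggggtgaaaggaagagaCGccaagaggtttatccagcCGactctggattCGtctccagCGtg
The window has 17 CG dinucleotides and a GC content of 63.7%. Of the 32851 promoter windows of the same length, 31.4% hold at least as many, and the median is 7. This count on the letters C and G (which read alike on either strand) is a description of the sequence and not a measurement of H3K27ac.

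At 2 months, the peaks of the Pax7 interval were not spread over it but lay in 1 dense block. Of the 122 peaks, 116 formed a run in which no gap was longer than 10 kb, at chr4:139239738-139437936 (mm9), a length of 198 kb or 63.9% of the interval. The median gap between neighboring peaks of the block was 0.780 kb and the longest was 7.63 kb. Toward lower coordinates the previous 2-month peak lay 60.7 kb away, and toward higher coordinates the next lay 700 kb away, so the block ended abruptly on both sides. Whether these low, closely spaced peaks stand for H3K27ac or for extra copies of the region in the 2-month animals, as an added segment of genomic DNA would give, was not tested, and this applies to every 2-month value of the block. The other 6 peaks of the interval lay in the 110 kb before the block. Peaks covered 13.4% of the interval at 2 months, 0.725% at 10 months, and 1.13% at 20 months. In the block the covered share was 20.1%, 0.378%, and 0.479% at the 3 ages.

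**Figure D1:**
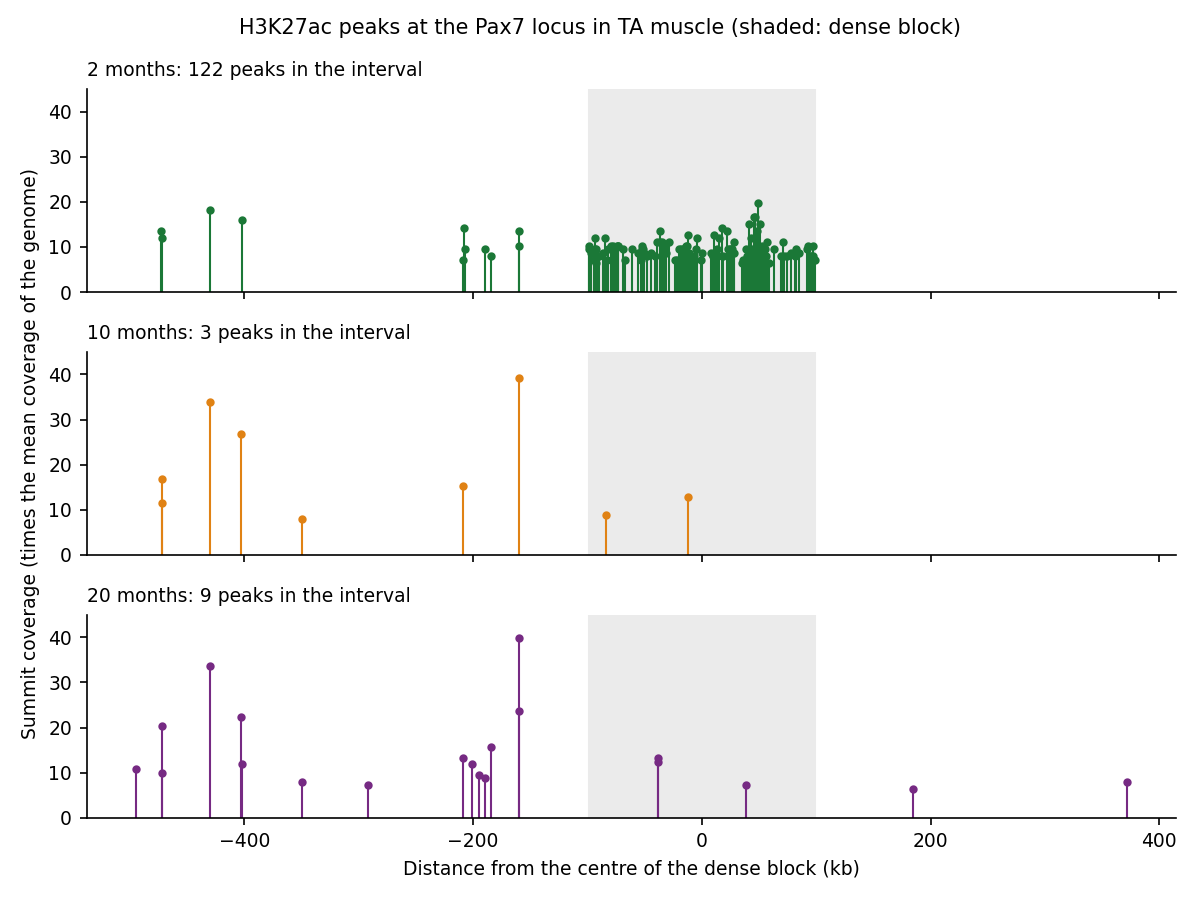
Peaks of the Pax7 interval and of the 300 kb on each side at 2, 10, and 20 months (1 library each), each drawn at its summit, with the distance from the centre of the dense block in kb on the x axis and summit coverage in multiples of the genome mean on the y axis. The 2-month panel is filled from end to end of the shaded block by low summits, while the later panels have 2 and 3 peaks there and their highest summits before it.

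The depth of each library was recovered from the peak lists. Summit reads and the background under them were solved from the deposited fold and p-value, and the lowest background of a list gives the mean coverage of the genome. It was 1.26, 2.24, and 2.50 reads at 2, 10, and 20 months, from 15.9, 18.9, and 26.3 M reads and fragments of 148, 222, and 178 bp. Summit reads divided by this mean are given below as multiples of the genome mean. Each age has a single library, so ages were compared without replicates and without a test, and the 95% intervals cover counting error only.

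The summits of the block were low and alike in height. The 116 block peaks had 8 to 25 summit reads at 2 months, with a median of 12 and quartiles of 10 and 13, or 6.34 to 19.8 times the genome mean with a median of 9.52. Over the whole 2-month list the median was 14 reads, or 11.1 times the genome mean, with quartiles of 9.52 and 13.5. A typical peak of the block thus stood at the lower quartile of its list. Widths in the block ran from 148 to 2095 bp with a median of 231 bp, against 267 bp in the list. The narrowest width possible, the fragment length, was found at 15 of the 116 peaks (12.9%), against 8.17% of the list.

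Along the block the peaks were unevenly spread. In consecutive bins of 10 kb from its first base, the median share covered was 17.1%, the lowest was 5.09%, and 3 to 11 peaks began in a full bin. The bin with the most coverage was filled to 84.3%, against 42.3% in the next. A stretch overlapping this bin, found as the 10 kb from the start of a peak with the most covered bases, lies at chr4:139379492-139389491. It was also covered to 84.3% and held 7 whole peaks of 513 to 2095 bp and 12 to 25 reads. It begins 140 kb into the block and ends 48.4 kb before the block does. Its median summit was 15.1 times the genome mean, against 8.72 times for the other 109 peaks of the block, the highest of which, 19 reads, straddles the end of the stretch. None of the 7 overlapped a peak at 10 or 20 months. The same held for 113 of the 116 block peaks (97.4%) and for 23.9% of the whole 2-month list. The interval was chosen for such peaks, so this does not set the stretch apart from the block. The stretch was singled out after its values were seen.

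**Figure D2:**
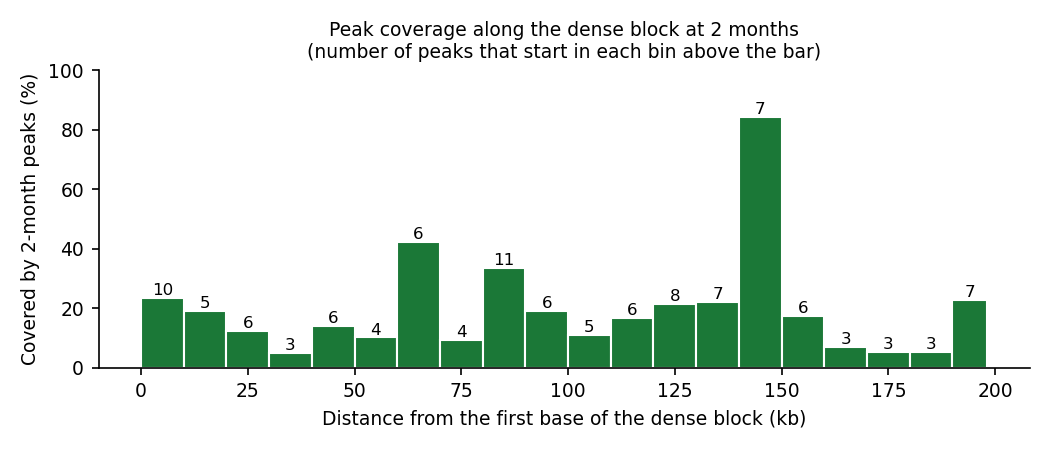
Share of each 10-kb bin of the dense block covered by 2-month peaks (bars, in percent), with the number of peaks that start in the bin above it and the distance from the first base of the block in kb on the x axis. A bin near 140 kb reaches 84.3%, the next highest is 42.3%, and the median is 17.1%.

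The highest 2-month summit of the interval had 25 reads, 19.8 times the genome mean, at chr4:139387032-139388764. Next came 2 peaks of 21 reads (16.7 times), at chr4:139383268-139384530 and chr4:139384789-139385661, and 2 of 19 reads (15.1 times), at chr4:139379492-139380004 and chr4:139389096-139389987. All of these lie in or at the edge of the stretch with the most coverage. The block opened with a peak of 12 reads at chr4:139239738-139239898 and closed with one of 9 reads at chr4:139437622-139437936, so both ends lay within the range of the rest of the block. Before the block, the 6 peaks had 10 to 18 reads.

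Later lists had their highest summits elsewhere. At 10 months the highest of the 3 interval peaks had 88 reads, 39.2 times the genome mean, at chr4:139178070-139179566, before the block. The other 2 lay in the block, with 29 reads (12.9 times) at chr4:139326614-139327018 and 20 reads (8.92 times) at chr4:139255029-139255372. At 20 months the highest were 100 reads (39.9 times) at chr4:139178731-139179336 and 59 reads (23.6 times) at chr4:139178168-139178622, the place of the 10-month maximum. Another peak before the block had 39 reads (15.6 times), at chr4:139154550-139154936. The 3 peaks of the block had 33 reads (13.2 times) at chr4:139300586-139300770, 31 reads (12.4 times) at chr4:139299865-139300429, and 18 reads (7.19 times) at chr4:139377694-139377892. Every later block peak lay below the median summit of its list, though some lay within the quartiles. That median was 15.6 times the genome mean at 10 months (quartiles 10.7 and 21.9) and 14.0 times at 20 months (9.59 and 20.8). In the interval, peaks over 20 times the genome mean were found before the block and at the later ages alone. The upper quartile of the 2-month list was 13.5 times, so such summits were a smaller share of it than of the later lists. Nothing about the locus is read from their absence at 2 months.

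Peaks that the later lists lack were counted with an overlap of at least 1 bp. Of the 122 interval peaks at 2 months, 116 (95.1%, exact interval 89.6% to 98.2%) had no overlapping peak at 10 and 20 months. In the whole 2-month list 23.9% of peaks had none, and 23.5% outside the interval. Since this is the contrast by which the interval was chosen, nothing is read from it. In the block 113 of 116 peaks had no later counterpart, and before it 3 of 6. Against the 10-month list alone the number was 119, and against the 20-month list alone 117. The interval holds 2 of 3 peaks at 10 months that overlap a 2-month peak (31.4% in the list) and 6 of 9 at 20 months (28.1% in the list). These later counts are small, and 2-month peaks cover 13.4% of the interval, so nothing is read from these shares either.

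How high a summit has to be to enter a list depends on the background set against it, and that background was of another kind at 2 months than later. At 10 and 20 months it was, at 100% of the peaks where it exceeded the genome mean, the coverage of that same library in the 10 kb around the peak, so broad signal around a peak raised it. At 2 months it moved instead in whole steps of 0.405 reads, taken per fragment, per 1 kb, or per 10 kb, at 3881 of 3881 peaks above the genome mean (to within 0.0002 reads), as a separate set of 39.4 M reads scaled down to the library would give. Within the block, the 2-month background was at the genome mean for 104 of 116 peaks (89.7%, against 78.3% in the list) and at most 1.61 times it for the other 12. Whether the reads behind this background came from the same animals is not stated. The 2 block peaks at 10 months had backgrounds of 2.71 and 3.88 times the genome mean, against a list median of 3.20. Those at 20 months had 2.24 to 3.68 times, against a list median of 2.94. These are the library's own coverage averaged over the surrounding 10 kb, so reads were present around the later block peaks beyond their summits.

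The height needed was computed from the smallest −log10 p in each list (4.67, 4.16, and 4.12 at the 3 ages). Over a background at the genome mean, 8 reads sufficed at 2 months, or 6.34 times the mean. Over the lowest and the highest background of the block peaks, 17 and 22 reads were needed at 10 months, or 7.58 and 9.81 times the mean. At 20 months 17 and 23 reads were needed, or 6.79 and 9.19 times. Of the 116 summits of the block at 2 months, 100 reached the lower and 36 the higher of the 10-month heights, and 113 and 60 reached those of 20 months. Over these backgrounds, the other 16 to 80 summits at 10 months and 3 to 56 at 20 months could have kept their multiple of the genome mean and still have gone uncalled. Over a background at the genome mean, 10 reads would have sufficed at 10 and 20 months (4.46 and 3.99 times), which all 116 summits reached. With summit reads scaled to sequencing depth (RPM) in place of the genome mean, 16 of the summits reached the lower and 5 the higher height at 10 months. At 20 months 76 and 23 did. With a 2-month background of 3 times the genome mean, 14 reads would have been needed at 2 months, a height reached by 23 of the 116 block peaks (19.8%) and by 51.7% of the list. The later background is known only where a later peak was called, and age and the kind of background cannot be told apart in these lists.

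**Figure D3:**
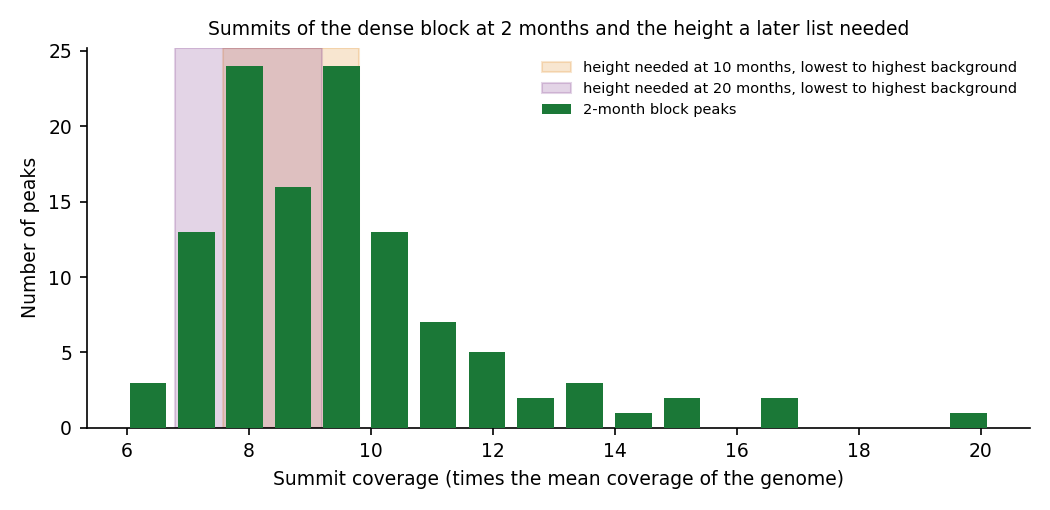
Number of 2-month block peaks (bars) by summit coverage in multiples of the genome mean, with the heights needed for a call at 10 and 20 months shaded between the lowest and the highest background of the block peaks of that age. The median summit of 9.52 lies within the 10-month range of 7.58 to 9.81 and just above the 20-month range of 6.79 to 9.19.

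Block regions with a peak at a later age had ratios of summit coverage over 2 months of 0.756 to 1.19. At chr4:139326614-139327355 there were 29 reads at 10 months (12.9 times the genome mean) against 16 at 2 months (12.7 times), a ratio of 1.02 (exact interval 0.536 to 2.01). At chr4:139299387-139300921 there were 33 reads at 20 months (13.2 times) against 14 at 2 months (11.1 times), a ratio of 1.19 (0.618 to 2.40). At chr4:139376829-139377949 there were 18 reads at 20 months (7.19 times) against 12 at 2 months (9.52 times), a ratio of 0.756 (0.344 to 1.72). Every one of these intervals includes 1, so a change was not detectable at this depth, and the highest summits of the 2 ages lay 164, 765, and 494 bp apart in turn.

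Before the block the picture was mixed. The region at chr4:139178070-139179566 had 17, 88, and 100 summit reads at 2, 10, and 20 months, or 13.5, 39.2, and 39.9 times the genome mean. Its ratio to 2 months was 2.91 (1.72 to 5.22) at 10 months and 2.96 (1.76 to 5.29) at 20 months, both intervals lying above 1, and the summits of the 3 ages were within 56 bp. At chr4:139149156-139149564 there were 22 reads at 20 months against 12 at 2 months, a ratio of 0.923 (0.438 to 2.05). Over the interval, 2 of 2 regions were higher at 10 months than at 2 months and 2 of 4 were higher at 20 months. In RPM 3 of 4 were higher at 20 months, since the ratio at chr4:139149156-139149564 became 1.11. On the scale of the genome mean, the shares higher among all regions with peaks at both ages were 93.3% at 10 months and 94.4% at 20 months, with median ratios of 1.95 (quartiles 1.48 and 2.47) and 2.01 (quartiles 1.56 and 2.52). The 3 ratios of the block lie below the lower of these quartiles, from 1 region at 10 months and 2 at 20 months, and the intervals of all 3 reach above it. Both ratios at chr4:139178070-139179566 lie above the upper quartile, and their intervals include the median ratio of all regions. A rise there beyond that of the lists was thus not shown.

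**Figure D4:**
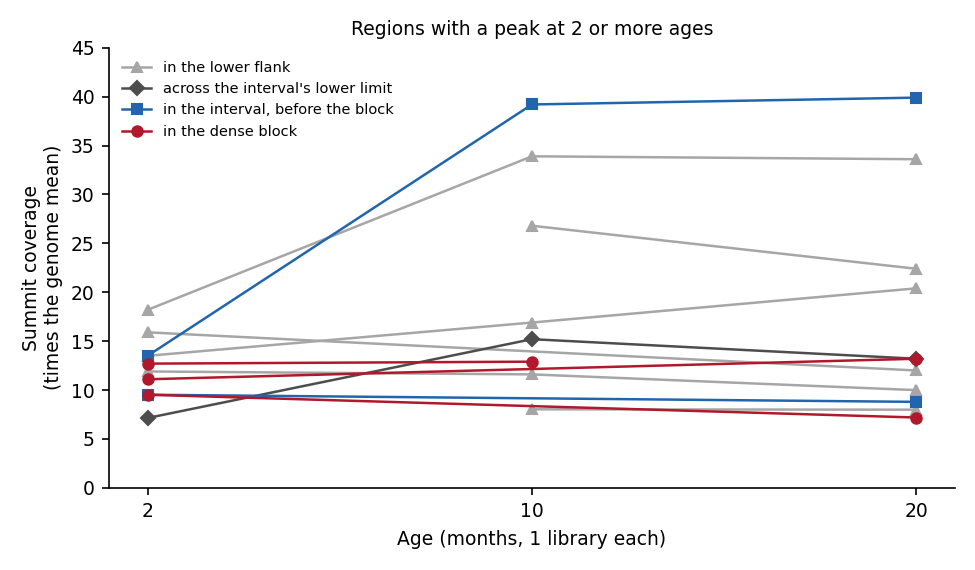
Summit coverage in multiples of the genome mean at 2, 10, and 20 months (1 library each) for the regions of the interval and its flanks with a peak at 2 or more ages; a line joins the ages at which a region has a peak. The block regions stay between 7.19 and 13.2, while the region before the block goes to 39.2 and 39.9 at the later ages.

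The flanks did not share the crowding of the interval at 2 months. In the 300 kb below the interval there were 4, 5, and 8 peaks at 2, 10, and 20 months, and in the 300 kb above it 0, 0, and 2. Among windows of 310 kb with a peak in any list, the median held 2, 5, and 6 peaks at these ages. The lower flank was at or above this median and the upper flank below it, though windows without any peak were left out and the flanks are 300 kb long. The density of the interval was 39.4 peaks per 100 kb at 2 months, against 0.667 in the flanks, a ratio of 59.0 (22.5 to 220). At 10 months it was 0.968 against 0.833 per 100 kb, a ratio of 1.16 (0.180 to 5.97), and at 20 months 2.90 against 1.67, a ratio of 1.74 (0.626 to 4.77). The interval and its limits were chosen for crowding at 2 months and not later, so these ratios describe that choice and test nothing. The ranges in brackets treat peaks as independent counts. Neighboring 2-month peaks of the block lay close together in 1 library, so nothing is read from the 2-month range. With flanks of 600 kb the ratios were 27.8, 0.581, and 1.29 at 2, 10, and 20 months, so that of 10 months turned to the other side of 1, and with peaks within 1 kb merged the 2-month ratio was 36.8. The 4 flank peaks of 2 months all had a later counterpart, and their 15 to 23 reads exceeded the block median. In the whole 2-month list 23.9% of peaks lacked a counterpart, against 0% of these 4 (exact interval 0% to 60.2%). So few peaks do not set the flanks apart from the list. At the lower limit of the interval, a region at chr4:139129891-139130212 fell just outside, with 9, 34, and 33 reads at the 3 ages, and the first 2-month peak inside had 18 reads at chr4:139130997-139131412. At the upper limit the last peak inside was the end of the block, and the next peak outside was one of 16 reads at 20 months, at chr4:139523555-139523990.

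Set against the rest of the genome, the Pax7 block was, with gaps of up to 10 kb, the run with the most peaks in any of the lists. The next runs at 2 months held 53 and 46 peaks, both on chromosome X, and the largest at 10 and 20 months held 22 and 29, both at the start of chromosome 9. With gaps of up to 5 kb the block broke up, and its longest run held 38 peaks. The block summits had a median of 9.52 times the genome mean, against 22.2 and 14.3 times in the chromosome X runs. Among 5433 windows of 310 kb, laid side by side from the limits of the interval, that hold a peak in any list, the Pax7 window had the most 2-month peaks and the most without a later counterpart. The interval was chosen for such peaks and the windows were laid from its own limits. This rank and that of the block among runs are thus descriptions and test nothing. A count of 10 or more peaks at 2 months alone was found in 52 windows. The 5 windows that follow, with 84, 76, 58, 45, and 41 such peaks, all lie between 120220001 and 122080000 on chromosome X, and none of their 2-month peaks had a later counterpart. Their median summits, 13.5 to 18.2 times the genome mean, were above that of the Pax7 window. They had 0 peaks at 10 and 20 months, whereas the Pax7 window had 3 and 9. At the later ages the Pax7 window was ordinary, since 3741 windows had at least 3 peaks at 10 months and 2125 at least 9 at 20 months.

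Of the 18 SC genes listed for comparison, only Vcam1 and Ncam1 had an mm9 position in the tables used. Vcam1 encodes an adhesion molecule on the surface of SCs that is also found on endothelial cells, and Ncam1 a neural adhesion molecule. Within the gene and 10 kb on each side, Vcam1 had 0, 1, and 2 peaks at 2, 10, and 20 months and Ncam1 had 0, 0, and 1. Neither gene thus had a 2-month peak there, and their highest later summits were 7.14 to 7.59 times the genome mean at Vcam1 and 5.19 times at Ncam1. The 2-month list is the shortest, with 17884 peaks against 35221 and 44752. No share of all genes without a 2-month peak is set beside these counts, so no contrast with Pax7 is read from them.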

How the data were processed

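H3K27ac ChIP-seq of TA muscle was available as 1 peak list for each of 3 ages. The submitters' processing notes name Bowtie2, mm9, and MACS2 2.1.0, and the Bowtie2 version is not given in the sources used here. The study's methods name input DNA for coverage tracks, in a section that opens with datasets from public databases, and IgG as a negative control in ChIP. They do not name which control, if any, each of these lists was called against. Beside positions and summits, the deposited columns hold a fold (the ratio of pileup to background at the summit), the −log10 of the p and of the q, and a score. The score is the −log10 q times 10, rounded down, and was not used. All were computed by the authors for each library on its own.

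Summit reads and background were solved from the fold, taken with 1 read added to each term, and the −log10 p (tolerance 0.001), for all but 1 peak at 10 months and 1 at 20 months. On simulated data 100% of 5000 peaks per age were recovered. A background within a relative 0.001 of the list's lowest was called at the genome mean, and the reads of a library follow from it, the narrowest peak, and the mouse genome size preset of MACS2 (1870000000). Peaks sharing at least 1 bp were merged into regions, each with the level of its highest summit. Ratios of reads have exact conditional binomial and shares exact (Clopper-Pearson) 95% intervals. With 1 library per age there was no test. Calculations used scipy 1.17.1, pandas 2.3.3, and numpy 2.4.6 under Python 3.11.15, and figures were drawn with matplotlib 3.10.9.

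The interval, its comparisons, and the lists of genes were chosen with earlier results of these data known. The genes named were Pax7 and its neighbors in RefSeq, and the peaks named were, per age, the 5 with the highest summits, the first and the last of the block, and every interval region with a peak at 2 or more ages, with the 5 windows that follow that of Pax7. The block, the height needed, and the stretch with the most coverage were added after the data had been seen. Alternatives were other thresholds, list lengths, widths, overlap rules, flanks, and scales. No reads, coverage tracks, or mm9 sequence and annotation were used, apart from the positions of Vcam1 and Ncam1 in a supplementary table of the study.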

Additional observations from a re-analysis of the deposited data

How the results depend on the processing

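Of 63 alternatives over 18 results, 37 stayed within the limits set for them and 26 did not. Some of these outcomes were fixed in advance, as for median summits in RPM (a change of unit) and for the 2-month list at equal length (its own length). The tally is thus not a measure of robustness. The interval had the most peaks at 2 months under every setting tried for that count. With the 50% of each list of smallest q, the interval had 25, 1, and 3 peaks at 2, 10, and 20 months, covered 5.47% at 2 months and 0.467% at 20 months, and had a median summit of 12.7 times the genome mean at 2 months. The 2-month density was then 12.1 times that of the flanks, and 24 peaks at 2 months lacked a later one. With lists of 17884 peaks by q, there were 122, 1, and 2 peaks, and 0.342% was covered at 20 months. The 2-month count of 122 became 57 when peaks closer than 1 kb were joined, 68 when a width of 222 bp was required, 39 when summits had to reach 10 times the genome mean (35 without a later peak), and 13 when they had to reach 1 RPM. With that last limit 3 peaks were left at 10 months and 6 at 20 months. In RPM the median summits were 0.753, 1.54, and 1.18. With the nearest summits, the 20-month summits were a median of 1.02 times those of 2 months, in place of 1.06. With gaps of up to 5 kb in place of 10 kb, the longest run in the block held 38 peaks, and with gaps of up to 20 kb it held 116. Summits of the block above the height needed at 10 months numbered 36 with the highest block background, 100 with the lowest, 76 with the list median, and 5 in RPM. At 20 months they numbered 60, 113, 76, and 23. Flanks of 150 kb held 0 peaks at 2 months and gave no ratio. No paired analysis was possible because each age has 1 library. Backgrounds at 10 and 20 months are known only at called peaks, which limits every statement on an absent peak. The gap limits, the single later lists, and the backgrounds were alternatives chosen after seeing the data. The causes of these differences were not tested.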
